A study of Mus musculus with 8 samples.

Results

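The tricarboxylic acid (TCA) cycle and the dehydrogenases, malic enzymes and carriers linked to it were examined in lung endothelial cells after loss of a subunit of respiratory complex III. The group holds 32 genes, listed by symbol as enzymes and carriers of the pathway, out of 43430 genes in the deposited count table. All 32 were found in the table and all 32 passed the filter on low counts. KO cells came from C57BL/6 mice with an endothelial knockout of the complex III subunit named QPC in the labels, read here as the product of the gene Uqcrq, and WT cells from wild-type C57BL/6 mice, with 4 libraries in each group. The treatment note is the same for every library, WT included: tamoxifen, used to start the deletion, on postnatal days 0 to 4, with lungs collected at day 15. RNA was taken from cells sorted for CD31, a surface protein of endothelial cells. The promoter that restricts the deletion to endothelial cells is not given in the sources used here, and no source says that the libraries are from different animals. The p-values therefore reflect variation among these libraries only, some of which may be technical.

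The TCA cycle runs in the mitochondrial matrix. Citrate synthase joins acetyl-CoA to oxaloacetate, and a ring of dehydrogenases then passes electrons to NAD+ or, at complex II (succinate dehydrogenase), to ubiquinone. Complex III takes the electrons from ubiquinol, so its loss holds back ubiquinol and NADH oxidation, and with them the cycle. Glycerol-3-phosphate dehydrogenase Gpd2 and the 2-hydroxyglutarate dehydrogenase D2hgdh also deliver electrons towards ubiquinone. Endothelial cells draw much of their ATP from glycolysis and are known to use the cycle largely for making aspartate, citrate and other precursors.

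Total counts ran from 11209714 to 13981329 per KO library and from 6407924 to 11951816 per WT library, and WT replicate 3 was the shallowest. The targeted gene Uqcrq stood at 1.59, 15.6, 9.57 and 13.97 CPM (read counts scaled to a common TMM-normalised library size) in KO replicates 1 to 4, against 26.3, 24.5, 26.8 and 31.5 CPM in WT replicates 1 to 4. Every KO library lay below every WT library (exact two-sided permutation test of mean CPM, p = 0.02857, the smallest that 4 against 4 allows), while the edgeR adjusted p of Uqcrq over all genes was 0.179. The 10 endothelial markers, among them Pecam1, Cdh5 and Kdr, summed to 13589 to 17847 CPM in KO, against 15218 to 17687 CPM in WT libraries. Of the 10, 1 was called higher and 2 lower, where 2.25% of all genes tested were called higher and 1.39% lower. The sorted cells were thus not unchanged in their own markers. Markers of alveolar type 2 cells, which make surfactant, were present too: 9 of 9 passed the filter, summing to 4018 to 17470 CPM in KO, against 4213 to 23996 CPM in WT, and 0 of the 9 were called as changed. Markers of further cell types were present at lower sums. Leukocyte markers summed to 395 to 1495 CPM in KO, against 418 to 2007 CPM in WT. Those of lymphatic endothelial cells summed to 935 to 1583 CPM in KO, against 864 to 2061 CPM in WT. Fibroblast and pericyte markers summed to 272 to 1345 CPM in KO, against 281 to 1431 CPM in WT. Part of each member's RNA can come from all such cells, and their part in the results was not tested. In bulk samples a change in the mix of cells and a change in RNA per cell cannot be told apart.

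In KO cells 1 of the 32 genes was called higher and 0 lower. The gene called was Cs, which encodes citrate synthase, at 245 ± 26.6 CPM in KO, against 159 ± 23.2 CPM in WT (SD, n = 4 each). Over all 12689 genes tested 3.63% were called in either direction, 2.25% as higher and 1.39% as lower (Benjamini-Hochberg adjusted p below 0.05 in edgeR), so a single call in 32 lies close to the background. Pck2, Slc25a10, Idh3b, Idh3a, Dlst and Mdh2 were not called, but in each of them all 4 KO libraries lay above all 4 WT libraries. With Cs, 7 of 32 genes (21.9%) were separated in that way and 0 in the other direction, where 6.94% of all genes tested lay wholly higher and 4.67% wholly lower. The log2 fold change of KO over WT was above 0 for 24 of the 32 genes, against 51.0% of all genes tested, with a median of 0.17 against 0.01. It ran from -0.89 for Gpd1, a scarce transcript, to 0.97 for Pck2. At an unadjusted p below 0.05, 8 genes were higher and 0 lower, the 7 above and Idh2, where 8.69% of all genes passed as higher and 6.53% as lower.

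**Figure D1:**
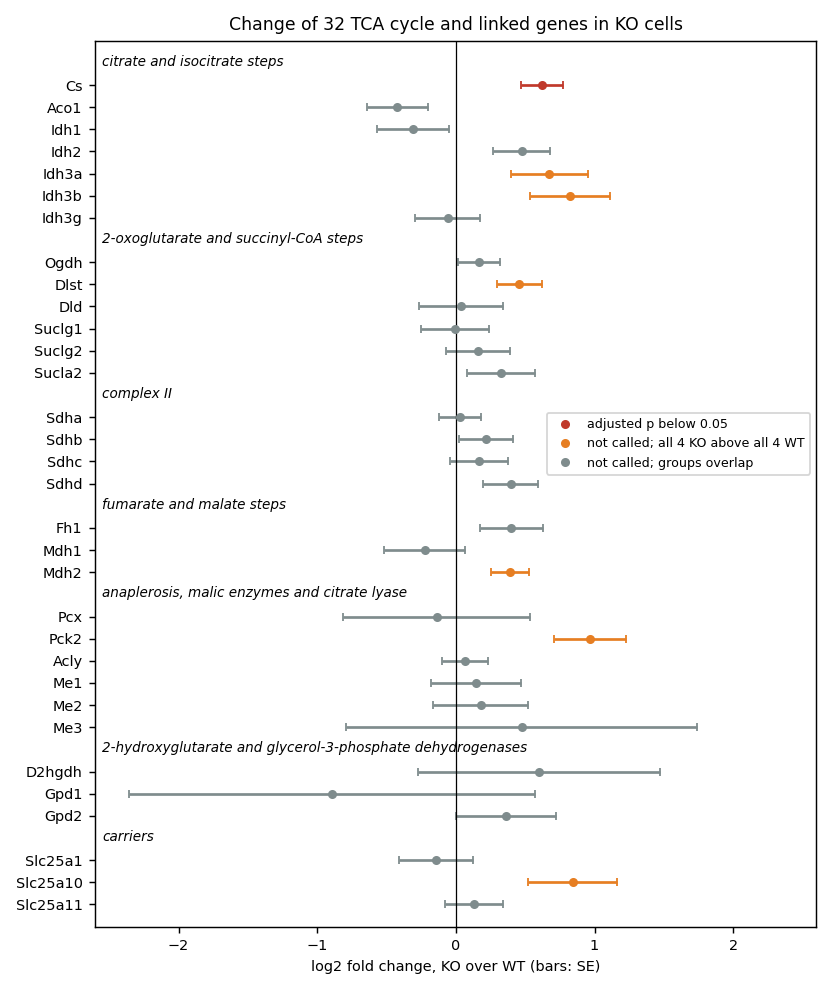
Log2 fold change of KO over WT for each of the 32 genes (horizontal axis, bars are SE from edgeR), grouped by role. Cs is the 1 gene called, 6 others had all 4 KO libraries above all 4 WT libraries, and the widest bars belong to the scarce transcripts Gpd1 and Me3.

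Citrate synthase catalyses the step by which carbon enters the cycle. Cs (ENSMUSG00000005683) lies on chromosome 10, plus strand, at positions 128337734 to 128362479 of build GRCm38 (mm10), and the counts are summed over its exons. It stood at 267, 223, 222 and 270 CPM in KO replicates 1 to 4 and at 193, 155, 149 and 141 CPM in WT replicates 1 to 4. The lowest KO library was above the highest WT library, WT replicate 1. The log2 fold change was 0.62 (SE 0.15, edgeR adjusted p = 0.0305), a ratio of group means of 1.54. This call did not survive the loss of any single library except WT replicate 1 (edgeR adjusted p from 0.0198 without WT replicate 1 to 0.0977 without WT replicate 4). The call was lost as well with replicate number as a block (log2 fold change 0.63, edgeR adjusted p = 0.0627) and after correction of every library for exon length and GC content (log2 fold change 0.52, edgeR adjusted p = 0.244).

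Pck2 had the largest log2 fold change of the 32 genes and was not called. It encodes the mitochondrial phosphoenolpyruvate carboxykinase, which turns oxaloacetate from the cycle into phosphoenolpyruvate and is a known target of the stress response factor ATF4. Pck2 (ENSMUSG00000040618) lies on the plus strand of chromosome 14 from 55540266 to 55551242. It had 136, 121, 104 and 85.1 CPM in KO replicates 1 to 4, against 60.3, 30.4, 56.7 and 80.8 CPM in WT replicates 1 to 4. The gap between the groups was narrow, with KO replicate 4 just above WT replicate 4. Pck2 averaged 111 ± 21.8 CPM in KO, against 57.0 ± 20.7 CPM in WT (SD, n = 4 each), with a log2 fold change of 0.97 (SE 0.26) and an edgeR adjusted p of 0.0515. It crossed the threshold in 8 of 22 alternatives, among them DESeq2 (adjusted p = 0.028), limma voom (0.0245) and edgeR with a covariate for alveolar type 2 markers (0.0291), over a range from 0.00686 to 0.19. The cytosolic form, Pck1, had 0 counts in 7 of the 8 libraries and was not tested.

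**Figure D2:**
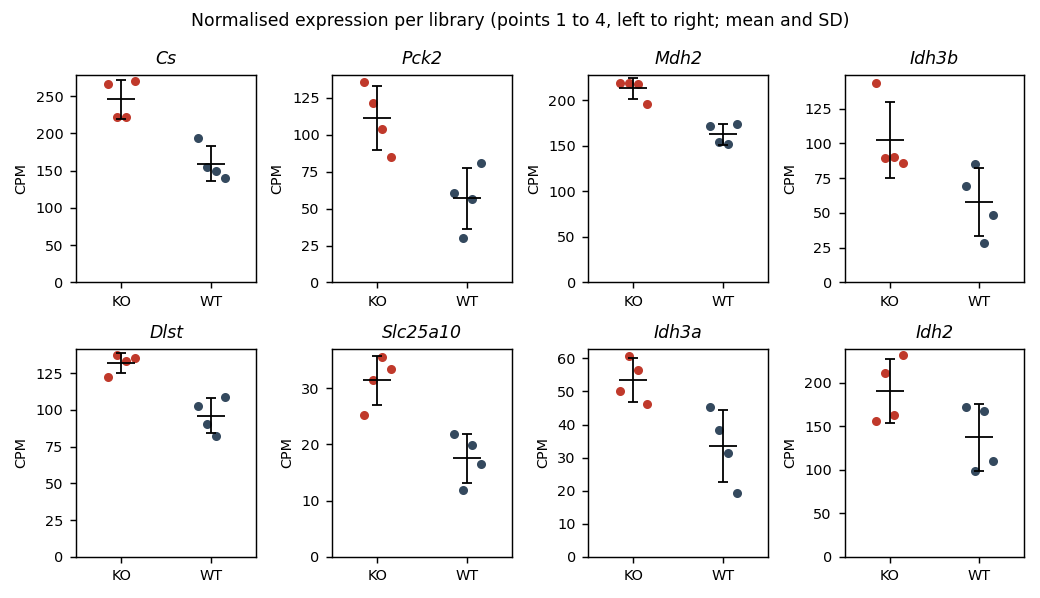
Normalised expression (CPM, vertical axes from 0) of the 8 genes with an unadjusted edgeR p below 0.05, with 1 point per library, KO left and WT right, and group mean with SD. In all panels but that of Idh2 the KO points lie wholly above the WT points, and Cs is the 1 gene that passed adjustment.

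Promoter windows are shown for Cs as the gene called, for Pck2 as the gene with the largest log2 fold change and for Mdh2 as the gene with the most motif matches in 1 window, a choice made after their values were seen. Known regulators of mitochondrial and stress genes act through short motifs at start sites. RefSeq windows on GRCm38.p6, 250 bases before to 50 after a start site, matched 28 of the 32 genes with 37 windows, some genes having several, and were searched on both strands for 6 motifs. Capitals mark the matches, which were the element TGATGNAA bound by ATF4 with its partners in Pck2 (read on the minus strand) and the palindromic motif bound by BANP in Mdh2, while the Cs window held none of the 6.
Cs promoter window (chr10:128337477-128337776, plus strand): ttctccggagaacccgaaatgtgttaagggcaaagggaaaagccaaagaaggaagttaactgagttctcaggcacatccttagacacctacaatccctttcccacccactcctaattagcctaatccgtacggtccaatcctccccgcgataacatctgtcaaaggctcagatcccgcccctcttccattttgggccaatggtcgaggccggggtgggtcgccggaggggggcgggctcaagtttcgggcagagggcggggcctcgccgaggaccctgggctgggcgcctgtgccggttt
Pck2 promoter window (chr14:55540016-55540315, plus strand): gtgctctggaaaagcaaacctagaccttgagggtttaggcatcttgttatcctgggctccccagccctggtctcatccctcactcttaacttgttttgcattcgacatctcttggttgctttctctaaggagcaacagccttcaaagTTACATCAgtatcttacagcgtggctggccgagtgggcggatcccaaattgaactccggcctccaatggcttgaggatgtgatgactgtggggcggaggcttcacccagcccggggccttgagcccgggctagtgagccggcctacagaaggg
Mdh2 promoter window (chr5:135778399-135778698, plus strand): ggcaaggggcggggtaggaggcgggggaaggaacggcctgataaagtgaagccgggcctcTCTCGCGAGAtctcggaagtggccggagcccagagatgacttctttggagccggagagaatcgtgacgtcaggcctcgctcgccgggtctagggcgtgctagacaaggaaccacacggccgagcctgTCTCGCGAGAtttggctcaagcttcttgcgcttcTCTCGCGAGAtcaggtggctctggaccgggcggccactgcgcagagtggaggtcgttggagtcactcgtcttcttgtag

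The Pck2 match, TTACATCA as printed and TGATGTAA on the other strand, began 103 bases before the start site. Of all 32851 windows 3.97% held TGATGNAA on either strand, and so did 2 of the 37 windows of the 28 genes, those in Pck2 and Me3. Mdh2 held the BANP motif at 3 places, beginning 190, 63 and 29 bases before the start site, and 0.466% of all windows held it at least at a single place. The palindromic motif of the factor NRF1 was in 0 of the 37 windows and in 0.971% of all windows. The ERR motif TCAAGGTCA was in Sdhd (0.423% of all windows) and the ETS motif CCGGAAGT, bound by GABPA, in Dlst (3.89%). The E-box CACGTG bound by MYC was in 5 of the 37 windows (7.15% of all windows). These belong to only 3 of the 28 genes, Ogdh, Pcx and Slc25a1, and overlapping windows of Ogdh share a match. A match of letters is not evidence of binding in these cells.

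None of the 5 isocitrate dehydrogenase genes was called. Idh3 is the NAD-dependent enzyme of the cycle, built from the subunits Idh3a, Idh3b and Idh3g, while Idh2 and Idh1 are the mitochondrial and cytosolic NADP-dependent enzymes. Idh3a had 50.3, 60.8, 56.6 and 46.1 CPM in KO libraries, against 45.2, 38.2, 31.4 and 19.3 CPM in WT libraries. All KO values lay above all WT values by a narrow margin, and the log2 fold change of 0.67 (SE 0.28) was not called (edgeR adjusted p = 0.244). Idh3b had 144, 89.6, 90.3 and 86.2 CPM in KO, against 69.3, 84.9, 28.7 and 48.2 CPM in WT, where KO replicate 1 stood far above the other 3 KO libraries. Its log2 fold change was 0.82 (SE 0.29, edgeR adjusted p = 0.151). Exons of Idh3b overlap those of Nop56, a ribosome biogenesis gene on the other strand, and without strand information reads in the shared stretch cannot be told apart. Nop56 itself averaged 57.0 ± 2.78 CPM in KO, against 33.7 ± 11.3 CPM in WT (SD, n = 4 each), and its part in the Idh3b value was not tested.

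The regulatory subunit gene Idh3g had 60.1, 83.0, 86.3 and 84.8 CPM in KO, against 97.1, 81.3, 101 and 48.3 CPM in WT, and here the groups overlapped fully. Within each library the Idh3a to Idh3g count ratio was 0.837, 0.733, 0.656 and 0.544 in KO and 0.465, 0.471, 0.311 and 0.399 in WT, a difference picked out after its values were seen and not tested. Idh2 had 156, 211, 163 and 232 CPM in KO, against 172, 98.3, 168 and 111 CPM in WT. Those groups overlapped, with a log2 fold change of 0.47 (SE 0.20, edgeR adjusted p = 0.268). Idh1 had 26.8, 57.9, 45.7 and 59.7 CPM in KO, against 57.9, 57.2, 65.9 and 54.7 CPM in WT (log2 fold change -0.31, SE 0.26, edgeR adjusted p = 0.705). KO replicate 1, the library with the least Uqcrq, was well below the rest. The cytosolic aconitase Aco1, which doubles as an iron-sensing RNA-binding protein, had 47.2, 78.1, 67.3 and 61.8 CPM in KO, against 86.7, 66.1, 108 and 81.2 CPM in WT. Its groups overlapped through KO replicates 2 and 3 and WT replicate 2, and its log2 fold change was -0.42 (SE 0.22, edgeR adjusted p = 0.394).

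The ratio of the mitochondrial to the cytosolic NADP enzyme does not depend on how libraries are scaled. Counts of Idh2 were 5.80, 3.64, 3.56 and 3.89 times those of Idh1 in KO libraries and 2.97, 1.72, 2.54 and 2.02 times in WT libraries. All KO ratios lay above all WT ratios, by 0.87 in mean log2 ratio (exact two-sided permutation test, p = 0.02857, the smallest that 4 against 4 allows, and 0.171 after Benjamini-Hochberg adjustment over 6 pairs). The mean log2 ratio was 2.05 ± 0.33 in KO and 1.18 ± 0.35 in WT (SD, n = 4 each). For the malate dehydrogenases, Mdh2 in the cycle and Mdh1 in the cytosol, the ratio was 6.13, 2.71, 2.38 and 2.29 in KO and 2.06, 2.92, 1.28 and 1.94 in WT. WT replicate 2 lay among the KO values and KO replicate 1 far above them (exact permutation p = 0.171, adjusted p = 0.343). Of the 6 pairs 0 passed after adjustment. Adjusted p was 0.729 for Idh3a to Idh2, 0.886 for Suclg2 to Sucla2, 0.886 for Me2 to Me1 and 0.343 for Gpd2 to Gpd1 (exact permutation tests).

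**Figure D3:**
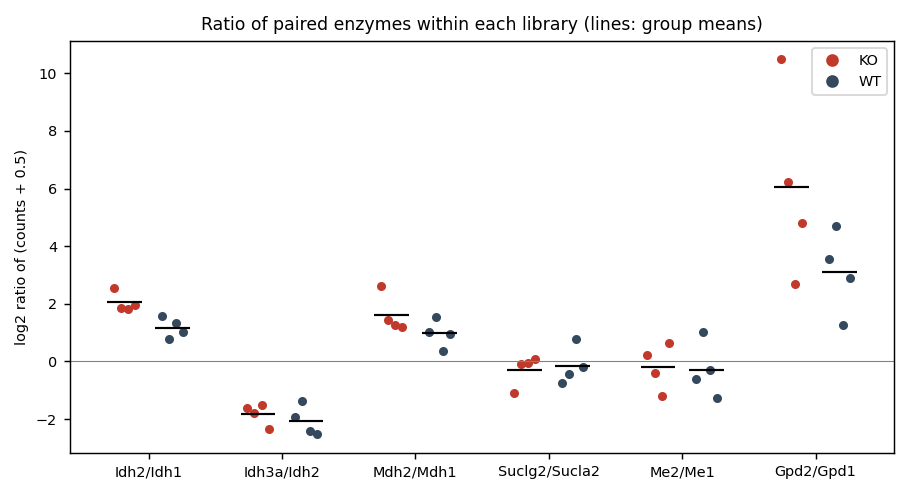
Log2 ratio of counts (plus 0.5) of 6 pairs of related enzymes in each library, KO left and WT right within a pair, with lines at group means. The KO points for Idh2 over Idh1 lie wholly above the WT points, and the groups overlap in the other 5 pairs.

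The 2-oxoglutarate dehydrogenase complex turns 2-oxoglutarate into succinyl-CoA and is built from Ogdh, Dlst and Dld. Dlst, its succinyltransferase core, had 122, 137, 133 and 135 CPM in KO, against 103, 90.7, 82.4 and 108 CPM in WT. Every KO library was above every WT library and the KO values differed little among themselves (coefficient of variation 5.08%, against 12.3% in WT). The log2 fold change of 0.46 (SE 0.16) was not called (edgeR adjusted p = 0.153). Ogdh, the first subunit, averaged 261 ± 21.5 CPM in KO, against 232 ± 43.1 CPM in WT, and Dld, a subunit shared with pyruvate dehydrogenase, 100 ± 17.8 CPM in KO, against 98.1 ± 50.8 CPM in WT (SD, n = 4 each). The log2 fold changes were 0.17 (SE 0.15) for Ogdh and 0.04 (SE 0.30) for Dld, and the WT libraries of Dld alone ran from 50.6 to 167 CPM. Succinyl-CoA synthetase, which makes ATP or GTP while freeing succinate, had its shared subunit Suclg1 at 59.2 ± 8.26 CPM in KO, against 59.3 ± 16.6 CPM in WT. Its GTP-forming subunit Suclg2 had 50.8, 60.5, 65.8 and 65.7 CPM in KO, against 47.0, 42.9, 74.1 and 54.2 CPM in WT, with overlap. The ATP-forming subunit Sucla2 had 109, 64.7, 68.4 and 62.1 CPM in KO, against 79.1, 58.1, 42.9 and 62.2 CPM in WT, so that KO replicate 1 again stood apart from the other KO libraries. None of the 3 was called (edgeR adjusted p of 0.997, 0.874 and 0.645).

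Complex II is both an enzyme of the cycle and an entry point for electrons into the respiratory chain, just upstream of complex III. Its 4 subunit genes had log2 fold changes of 0.03 (SE 0.15) for the flavoprotein gene Sdha, 0.21 (SE 0.20) for the iron-sulfur subunit Sdhb, 0.17 (SE 0.21) for the membrane anchor Sdhc and 0.40 (SE 0.20) for the anchor Sdhd. Of these 4 genes 0 were called in either direction and in 0 did the groups separate. Sdha had 160, 172, 189 and 219 CPM in KO, against 178, 188, 155 and 202 CPM in WT, with overlapping groups. Sdhd came nearest to separation, at 86.8, 98.8, 102 and 119 CPM in KO, against 103, 69.3, 62.8 and 74.7 CPM in WT (edgeR adjusted p = 0.375). Only WT replicate 1 of Sdhd lay among the KO values.

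After complex II the fumarate hydratase gene Fh1 had 62.6, 61.8, 69.8 and 78.7 CPM in KO, against 68.8, 44.5, 54.1 and 39.6 CPM in WT (log2 fold change 0.40, SE 0.23, edgeR adjusted p = 0.47). WT replicate 1 again reached into the KO range. Mdh2 (ENSMUSG00000019179), the mitochondrial malate dehydrogenase on the plus strand of chromosome 5 from 135778480 to 135790398, closes the cycle. It had 219, 219, 218 and 196 CPM in KO, against 171, 154, 151 and 174 CPM in WT. The groups were separate, and their coefficients of variation, 5.36% in KO and 7.08% in WT, were among the lowest of the 32 genes. Its log2 fold change was 0.39 (SE 0.14, edgeR adjusted p = 0.148). Mdh1, the cytosolic partner in the malate-aspartate shuttle, had 35.7, 80.8, 91.6 and 85.6 CPM in KO, against 83.4, 52.8, 118 and 89.4 CPM in WT, with KO replicate 1 the lowest of all 8. Its log2 fold change of -0.23 (SE 0.29, edgeR adjusted p = 0.849) was 0.0032 without that library and -0.03 without WT replicate 3. Exons of Mdh1 overlap the scarce Wdpcp on the other strand, at 3.79 ± 2.63 CPM in KO, against 5.99 ± 0.926 CPM in WT (SD, n = 4 each).

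Genes that fill or drain the cycle were mixed. Pyruvate carboxylase (Pcx), which makes oxaloacetate from pyruvate, was scarce and uneven at 16.1, 4.07, 22.7 and 6.30 CPM in KO, against 8.95, 4.14, 28.6 and 12.7 CPM in WT. ATP citrate lyase (Acly), which cuts exported citrate into acetyl-CoA for lipid and histone use, averaged 243 ± 26.0 CPM in KO, against 232 ± 46.9 CPM in WT (SD, n = 4 each). Its log2 fold change was 0.07 (SE 0.16, edgeR adjusted p = 0.937), with WT replicate 4 well below the other WT libraries. Malic enzymes turn malate into pyruvate. The cytosolic Me1 had 29.2, 47.1, 55.5 and 27.6 CPM in KO, against 45.8, 25.2, 24.4 and 48.5 CPM in WT. The mitochondrial NAD-dependent Me2 had 34.1, 35.9, 24.4 and 43.4 CPM in KO, against 30.1, 51.5, 20.03 and 20 CPM in WT, and in both genes the groups overlapped. The mitochondrial NADP-dependent Me3 had 5.34, 9.32, 2.22 and 8.40 CPM in KO, against 4.10, 11.5, 0 and 2.55 CPM in WT. None of the 3 malic enzymes was called, and the log2 fold change of Me3 was 0.47 with an SE of 1.26, beside a coefficient of variation of 109% between WT libraries.

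Gpd2 and D2hgdh, which deliver electrons towards ubiquinone by other routes, did not separate the groups, and neither did the cytosolic Gpd1. Gpd2, the mitochondrial enzyme of the glycerol-3-phosphate shuttle, had 66.9, 62.1, 50.2 and 79.1 CPM in KO, against 69.8, 71.1, 16.1 and 43.5 CPM in WT (log2 fold change 0.36, SE 0.36, edgeR adjusted p = 0.774). WT replicate 3, the shallowest library, was the low one, and without it the log2 fold change of Gpd2 was 0.075. The cytosolic Gpd1 had counts of 0, 10, 98 and 39 in KO and 71, 31, 45 and 71 in WT, a log2 fold change of -0.89 (SE 1.46, edgeR adjusted p = 0.89). A count of 0 allows up to 3 counts, and this gene was near that floor in KO replicate 1. D2hgdh, which oxidises D-2-hydroxyglutarate, had 5.15, 5.48, 10.9 and 9.99 CPM in KO, against 4.27, 6.81, 6.58 and 3.13 CPM in WT, with overlapping groups (log2 fold change 0.60, SE 0.87, edgeR adjusted p = 0.872).

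Carriers move the intermediates across the inner membrane. Slc25a10, which exchanges malate and succinate for phosphate, had 25.3, 31.5, 35.4 and 33.4 CPM in KO, against 21.7, 11.9, 19.9 and 16.5 CPM in WT. All KO libraries were above all WT libraries, with group means of 31.4 ± 4.38 CPM in KO, against 17.5 ± 4.32 CPM in WT (SD, n = 4 each). The log2 fold change of 0.84 (SE 0.32) was not called (edgeR adjusted p = 0.197). The citrate carrier Slc25a1 averaged 42.3 ± 12.6 CPM in KO, against 46.8 ± 8.12 CPM in WT. The 2-oxoglutarate carrier Slc25a11, whose exons overlap Rnf167 on the other strand, averaged 74.1 ± 9.95 CPM in KO, against 67.8 ± 12.3 CPM in WT. Neither was called (edgeR adjusted p of 0.908 and 0.888), and Rnf167 itself was lower in KO, at 41.7 ± 8.59 CPM against 87.5 ± 5.53 CPM in WT (edgeR adjusted p = 0.00873).

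Levels between genes were compared per kilobase of exon, since longer transcripts collect more reads. By group mean the most abundant members were Sdhd at 82.7 ± 10.8 CPM per kb in KO and 62.8 ± 14.3 in WT, Idh2 at 73.5 ± 14.4 in KO and 53.0 ± 14.7 in WT, and Mdh2 at 59.8 ± 3.20 in KO and 45.6 ± 3.23 in WT (SD, n = 4 each). The scarcest were Gpd1 at 0.959 ± 1.18 CPM per kb in KO and 1.79 ± 0.605 in WT, D2hgdh at 1.84 ± 0.700 in KO and 1.21 ± 0.419 in WT, and Me3 at 0.432 ± 0.220 in KO and 0.310 ± 0.337 in WT. Each gene's WT range overlapped that of the next gene in the order, so the order of neighbours is not resolved. Cs stood at 42.5 ± 4.61 CPM per kb in KO and 27.6 ± 4.02 in WT. The length used is the union of all annotated exons of a gene. Together the 32 genes took 0.294 ± 0.0183% of all counts in KO and 0.256 ± 0.0189% in WT (SD, n = 4 each). The groups overlapped, with WT replicate 1 at 0.283% and KO replicate 1 at 0.271%.

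**Figure D4:**
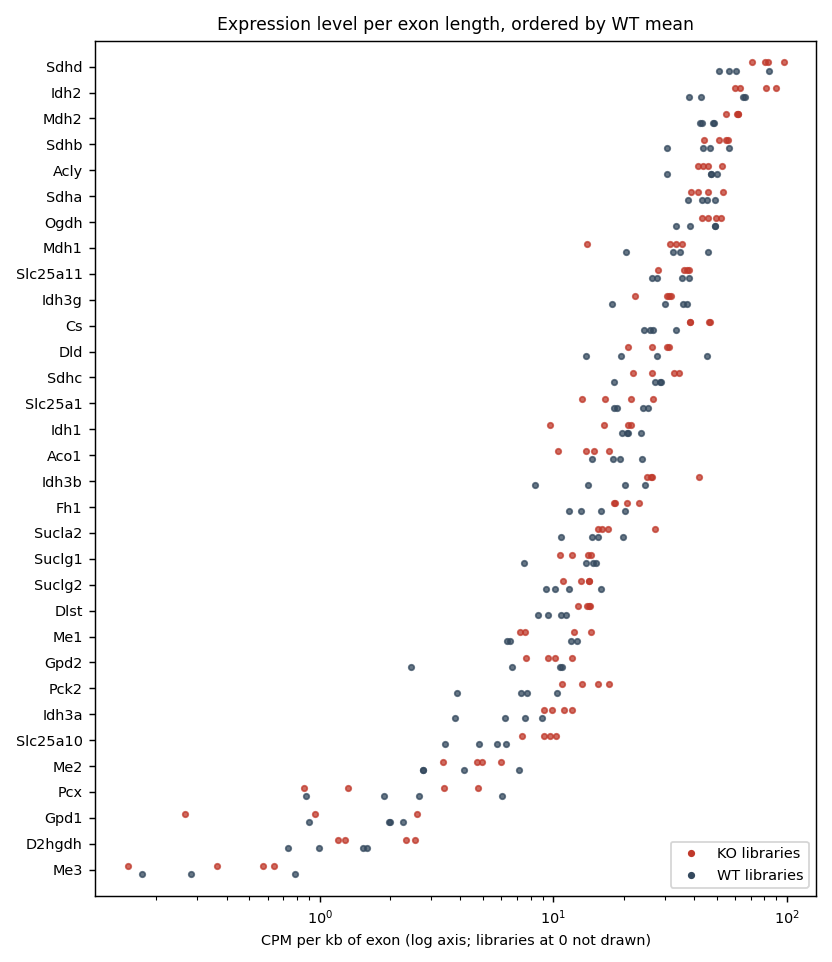
Level of each gene per kb of exon (log axis), ordered by WT mean, with 1 point per library, KO above WT in each row, and libraries at 0 not drawn. Levels fall from Sdhd and Idh2 at the top to D2hgdh and Me3 at the bottom, and ranges of neighbouring genes overlap.

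The spread between libraries differed between genes. The median coefficient of variation over the 32 genes was 18.1% in KO and 25.2% in WT, and in 23 of the 32 it was larger in WT. KO replicate 1, which had the least Uqcrq, was the highest or lowest KO library for 21 of the 32 genes. KO replicates 2, 3 and 4 were so for 10, 14 and 19. KO replicate 1 was the lowest for 17, and KO replicates 2, 3 and 4 for 3, 5 and 7. WT replicate 3, with 6407924 counts, was the highest or lowest WT library for 21, and WT replicates 1, 2 and 4 for 10, 15 and 18. KO replicate 1 also had the lowest alveolar type 2 marker level of the KO libraries (4018 CPM summed, with 7241 to 17470 CPM in the other KO libraries). With KO replicate 1 and WT replicate 3 both left out Cs had a log2 fold change of 0.55 (edgeR adjusted p = 0.123) and Pck2 0.86 (edgeR adjusted p = 0.19).

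Of 38 other genes of the pathway, listed by role, 33 were tested, with 1 called higher and 1 lower, where 2.25% of all genes were called higher and 1.39% lower. Their median log2 fold change was -0.01. The gene called higher was Got1, the cytosolic aspartate aminotransferase, at 42.5, 19.7, 40.5 and 16.2 CPM in KO, against 1.67, 4.40, 7.47 and 7.08 CPM in WT (log2 fold change 2.53, SE 0.53, edgeR adjusted p = 0.0123). All KO libraries exceeded all WT libraries, and the call ended without KO replicate 3 (edgeR adjusted p = 0.0754), by limma voom (0.0976) and after length and GC correction in edgeR (0.0562). Got2, the mitochondrial aminotransferase, had 107, 85.6, 96.1 and 132 CPM in KO, against 67.6, 68.7, 57.3 and 72.3 CPM in WT. Its groups were separate too, but the log2 fold change of 0.66 (SE 0.19) was not called (edgeR adjusted p = 0.0709). The glutamate carrier Slc25a22 had 18.7, 14.2, 19.1 and 13.4 CPM in KO, against 6.52, 12.8, 4.93 and 4.28 CPM in WT (edgeR adjusted p = 0.325). Glud1, the glutamate dehydrogenase, had 319, 279, 359 and 352 CPM in KO, against 300, 273, 251 and 254 CPM in WT, with overlapping groups (edgeR adjusted p = 0.336).

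Among the listed pathway genes were 13 for the entry of pyruvate into the cycle, a list that holds the pyruvate dehydrogenase complex and carriers together with the kinases and phosphatases that switch the complex off and on. Of these 13 genes 2 had a log2 fold change above 0, against 51.0% of all genes tested, and the median was -0.30. In this list 1 gene was called lower and 0 higher, where 1.39% of all genes were called lower and 2.25% higher. Other roles differed, with 6 of 6 tested genes of glutamine and glutamate entry above 0. So were 4 of 4 mitochondrial aconitase and 2-oxoglutarate relatives, 2 of 4 complex II assembly genes and 1 of 4 shuttles and carriers. For cytosolic phosphoenolpyruvate carboxykinase and acetyl-CoA partners it was 1 of 2. Whether the pyruvate list shifted as a whole was not tested. Pdk2, a kinase that switches pyruvate dehydrogenase off, had 20.3, 22.9, 17.3 and 15.2 CPM in KO, against 29.2, 44.9, 48.9 and 41.4 CPM in WT. The groups did not overlap, and the log2 fold change was -1.12 (SE 0.29, edgeR adjusted p = 0.0467). The call of Pdk2 was lost in 12 of 22 alternatives, among them the loss of any single library except WT replicate 1 (the highest edgeR adjusted p was 0.142, with KO replicate 3 left out). Pdpr, the regulator of the phosphatase that switches the enzyme back on, had 10.4, 14.6, 12.3 and 27.7 CPM in KO, against 22.8, 27.7, 30.05 and 24.9 CPM in WT, with KO replicate 4 among the WT values, and was not called (edgeR adjusted p = 0.444). The enzyme's own catalytic genes Pdha1, Pdhb and Dlat had log2 fold changes of -0.06, 0.14 and -0.01 (SE 0.18, 0.23 and 0.26) and were not called.

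**Figure D5:**
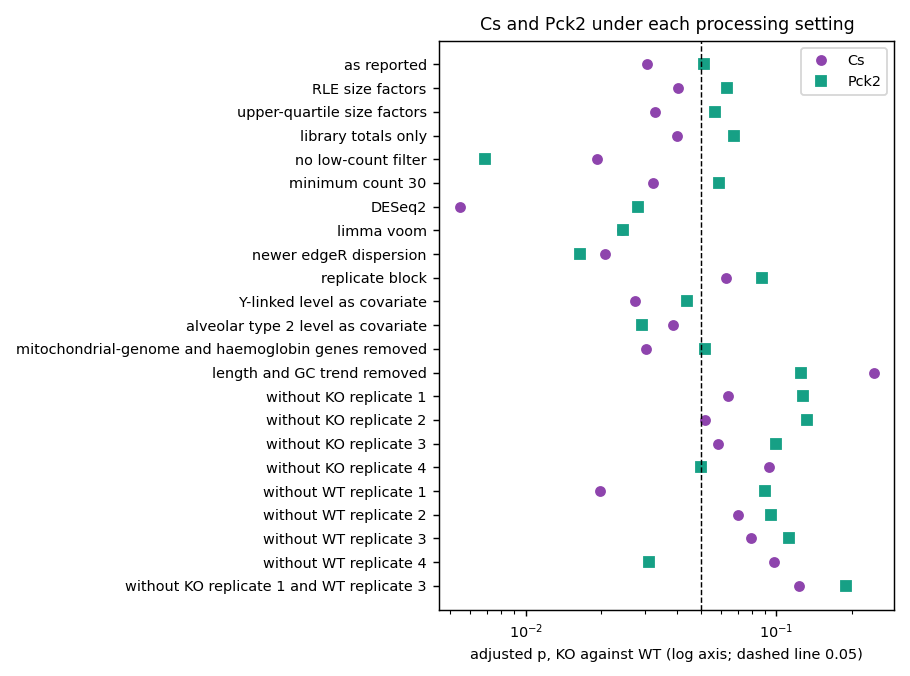
Adjusted p of KO against WT for Cs and Pck2 (log axis, dashed line at 0.05) as reported and under 22 other settings. Cs stays left of the line in 12 of the 22 and Pck2 in 8.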

How the data were processed

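RNA-seq of CD31-sorted lung endothelial cells was used from 4 KO and 4 WT libraries, grouped by their labels. The submitters' processing notes list mm10 as build and HTSeq, TopHat, bcl2fastq and edgeR as tools, without versions. Annotation release, strandedness and filtering: not given in the sources used here. The table deposited by the authors holds unnormalised counts per Ensembl gene, and 42462 of 43430 IDs had a symbol in GENCODE M21 (GRCm38). Libraries of a group all differed beyond counting noise (chi-square over its degrees of freedom 32.4 to 74.6).

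Counts were filtered (filterByExpr, minimum count 10, minimum total 15), TMM-normalised and tested over 12689 genes in edgeR 4.0.16 (quasi-likelihood, R 4.3.3), genotype as the only term, Benjamini-Hochberg adjusted over all genes. The SE is the log2 fold change over the root of F. Per-library values are given for genes called, separated, among the 12 smallest p or in a ratio pair, and for the other pathway genes with the smallest p. Outside that rule they are also given for Idh3g, Sdha, Pcx, Me3 and D2hgdh. CPM per kb used the exon union. DESeq2 1.42.0, limma 3.58.1 and other settings were alternatives. The pipeline was tested on simulated data. Floors of 3 counts cover counting error only. Members and lists were chosen with earlier results of these data known.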

Additional observations from a re-analysis of the deposited data

Results flagged for a closer look

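In 6 of 78 groups of 4 libraries examined, a single library stood apart from the other 3 by more than the critical value of Dixon's outlier test, where chance gives about 1 in 20. For 3 of them the library was KO replicate 1. Idh3b was at 143.7 CPM there, with the other KO libraries at 86.2 to 90.3 CPM, and Sucla2 was at 108.8 CPM, with the others at 62.1 to 68.4 CPM. Idh3g was low in the same library, at 60.1 CPM, with the others at 83.0 to 86.3 CPM. Mdh2 was lowest in KO replicate 4, at 195.9 CPM, where the other 3 KO libraries lay between 218 and 219 CPM. In WT cells Sdhc was lowest in replicate 3, at 59.2 CPM (the others 88.8 to 94.0 CPM), and Acly in replicate 4, at 162.4 CPM (the others 249 to 265 CPM).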

How the results depend on the processing

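Each comparison was repeated under 22 alternatives and each ratio under its own set. The Gpd2 to Gpd1 ratio had no value without a pseudocount, since Gpd1 had 0 counts in KO replicate 1. The count of members called higher was 1 as reported, 2 (with Pck2) with no low-count filter, DESeq2, limma voom, the newer edgeR dispersion option, and with a covariate for Y-linked genes or for alveolar type 2 markers. It was 0 under the replicate block, after length and GC correction, and with KO replicate 1 and WT replicate 3 both left out. Leaving out 1 library gave 0 to 1, and the gene called was Cs without WT replicate 1 but Pck2 in place of Cs without KO replicate 4 or WT replicate 4. No alternative called a member lower. For the other pathway genes, the count higher was 2 by DESeq2, 0 by limma voom and 0 after length and GC correction, and 0 to 1 without 1 library. The count lower was 0 by limma voom, under the replicate block, with the Y-linked covariate, after length and GC correction and with both libraries left out, and 0 to 1 without 1 library. Uqcrq stayed below WT and short of the threshold in all 22 (log2 fold change -1.80 to -1.06). The cause of these changes was not tested.

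Deviations of libraries from their group means did not follow replicate numbers. Those of same-numbered libraries correlated at -0.0962, -0.104, -0.00513 and 0.00442, and no library correlated best with its own number. The labels do not say whether libraries were paired, and weak correlations over all genes cannot show that they were not. Over all genes the replicate block called 215 higher and 123 lower, where 285 and 176 were called without it. With it Pck2 had a log2 fold change of 1.03 (edgeR adjusted p = 0.0876), and the Idh2 to Idh1 difference of 0.87 had an exact sign-flip p that cannot fall below 0.125. The length and GC correction moved the median of all genes to -0.10, from 0.01 as reported.

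Among the 32 genes 20 kept their sign in all 22 alternatives, but not always the size of their log2 fold change. With the length and GC trend removed, Sdhd fell from 0.40 to 0.092, Sdhb from 0.21 to 0.022 and Suclg2 from 0.16 to 0.0020. Idh2 fell from 0.47 to 0.24, Fh1 from 0.40 to 0.20 and Mdh2 from 0.39 to 0.21. Pck2 and Dlst moved less, from 0.97 to 0.92 and from 0.46 to 0.43. The genes that did not keep their sign, none of them called, changed as follows. Idh3g was 0.032 by limma voom, 0.17 with both libraries left out and -0.24 to 0.059 without 1 library. Dld was -0.018 by library totals, -0.0013 by DESeq2, -0.17 with the length and GC trend removed and -0.18 to 0.42 without 1 library. Suclg1 was 0.036 with the block, 0.043 with the alveolar type 2 level and -0.19 to 0.087 without 1 library. Sdha was -0.0014 by RLE, -0.017 by totals, -0.0016 by DESeq2, -0.13 with the trend removed and -0.072 to 0.097 without 1 library. Sucla2 was -0.028, Sdhc -0.059 and Mdh1 0.20 with both libraries left out. Pcx was 0.029 by limma voom, 0.0075 by the newer dispersion option and 0.36 with both libraries left out. Without 1 library Mdh1 ran from -0.40 to 0.0032, Pcx from -0.62 to 0.52, Acly from -0.069 to 0.14, Me1 from -0.053 to 0.33 and Slc25a1 from -0.33 to 0.0029. With the trend removed Acly was -0.064, Me1 -0.0028 and Slc25a11 -0.14.

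The SE of the log2 fold change was 1.46 for Gpd1, 1.26 for Me3 and 0.87 for D2hgdh, and what part of it depth accounts for was not tested.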
